A study of Mus musculus with 16 samples.

Results

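*Zbtb7b* codes for ThPOK, a zinc finger transcription factor of the BTB family that directs positively selected thymocytes to the CD4 helper lineage. Open chromatin at this locus was described in all peaks that overlapped the gene body or the 30 kb on either side of it, in the peak lists of 4 thymocyte stages. The gene (ENSMUSG00000028042.15) lies on the minus strand of chromosome 3 at chr3:89377644-89394776 in mm10 with the GENCODE M21 annotation, so the window was chr3:89347644-89424776, 77133 bp long. It held 26 of the 185978 merged regions of the series, where a merged region joins the peaks of all stages that share at least 1 bp.

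ATAC-seq cuts and tags accessible DNA with a transposase, so that sequenced fragments gather where chromatin is open. Thymocytes of 4 wild type C57BL/6J mice, 9 weeks old, were sorted into 4 stages, which gave 16 libraries. Double negative cells (DN) lacked CD4, CD8, CD3 and the markers of other lineages, and double positive cells (DP) carried CD4 and CD8. CD4 single positive cells (SP4) carried CD4 and CD3, and CD8 single positive cells (SP8) carried CD8 and CD3. Each stage is a gate that holds a mixture of cells, and the SP gates hold both recently selected and more mature cells.

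Double positive thymocytes that receive signals through MHC class II induce *Zbtb7b* and become CD4 cells, whereas cells selected on MHC class I keep the gene silent and become CD8 cells. The gene is known to have a distal and a proximal promoter. A distal regulatory element upstream of the distal promoter holds a silencer, through which Runx complexes repress the gene, beside a thymic enhancer, and a further enhancer lies between the promoters. GATA3 and TOX act before ThPOK in the CD4 lineage, Runx3 opposes it in the CD8 lineage, and PATZ1 (MAZR) takes part in its repression.

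The authors pooled the 4 mice of each stage before they called peaks, so every value has no error between mice and no test between stages was possible. The lists held 150139 peaks (DN), 107110 (DP), 115074 (SP4) and 104411 (SP8). A peak's fold enrichment compares the tags over its summit with the local background, and the tags themselves could be recovered from the fold enrichment and the p-value as whole numbers. The genome background per position was 3.51 tags (DN), 3.28 (DP), 3.22 (SP4) and 3.58 (SP8). Summit tags divided by this background are called scaled tags, and ratios between stages are given with 95% intervals that cover counting error only. The scaling does not adjust for differences between stages in the share of tags that fall in peaks. An interval without 1 is therefore not by itself a difference particular to a region. Promoters of the 6 T lineage markers examined, *Cd3e*, *Cd3d*, *Cd3g*, *Lck*, *Cd2* and *Cd5*, were called at every stage. Of the B cell markers, the promoter of *Pax5* was called at DN and DP, that of *Ebf1* at every stage and that of *Cd79a* at none. For myeloid markers the counts were 3 of 4 at DN and 2 of 4 at each other stage. Erythroid promoters were called for 2 of 3 genes at DN and SP8 and for 1 of 3 at DP and SP4, and natural killer promoters for 1 of 3 at every stage. *Csf1r*, *Klf1*, *Ncr1* and *Klrb1c* had no promoter peak at any stage. Promoter calls were common in general. Of 14052 protein-coding genes with a promoter peak at any stage, 84.0% had one at all 4 stages. A called promoter therefore does not by itself identify a cell type. The part of other cells in the results was not tested.

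Positions below are distances in kb from the most upstream coding start site of the distal promoter, chr3:89393678, and negative values lie downstream in the direction of transcription. The distal promoter cluster had starts of 5 coding transcripts between 89393342 and 89393678, and the proximal cluster had starts of 2 coding transcripts between 89387189 and 89387671. The sequences below are those the results turn on, read 5′ to 3′ on the minus strand of mm10 (RefSeq GRCm38). Capitals mark matches to the plain-letter motifs described further on.

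The distal promoter upstream of its start sites is shown because a peak was called there at SP4 only (chr3:89393679-89393846, 168 bp, 68.5% G and C).
Distal promoter: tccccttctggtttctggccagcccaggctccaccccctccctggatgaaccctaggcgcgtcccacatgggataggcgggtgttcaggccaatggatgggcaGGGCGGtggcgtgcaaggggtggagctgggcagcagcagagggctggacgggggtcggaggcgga
A GGGCGG box of the KLF and SP family stands in capitals.

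In the upstream stretch, where the distal regulatory element is known to lie, the first sequence is the 300 bp around the highest summit (chr3:89396428-89396727). The second is a stretch of 187 bp in the middle of the region that only the DP peak covered (chr3:89396088-89396274, 70.6% G and C).
Upstream stretch, summit: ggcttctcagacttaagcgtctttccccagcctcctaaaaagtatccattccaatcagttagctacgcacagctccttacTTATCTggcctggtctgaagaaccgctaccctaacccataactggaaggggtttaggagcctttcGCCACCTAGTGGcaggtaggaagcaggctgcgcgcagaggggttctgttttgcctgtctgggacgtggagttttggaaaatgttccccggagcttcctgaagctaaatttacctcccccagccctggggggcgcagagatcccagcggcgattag
Upstream stretch, middle: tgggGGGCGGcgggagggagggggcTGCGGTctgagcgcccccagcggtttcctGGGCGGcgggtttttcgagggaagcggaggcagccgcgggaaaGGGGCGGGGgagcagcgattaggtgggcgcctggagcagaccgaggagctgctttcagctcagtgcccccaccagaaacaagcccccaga
Capitals mark a GATA match (TTATCT on this strand) and a CTCF match at the summit, and in the middle a RUNX match (TGCGGT), a PATZ1 match and KLF/SP matches, of which 1 overlaps the PATZ1 match.

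Between the promoters, the 300 bp around the summit at −4.7 kb (chr3:89388864-89389163) are shown because this region was called at all stages and was taller at both SP stages than at DP in summit tags.
Intron between the promoters: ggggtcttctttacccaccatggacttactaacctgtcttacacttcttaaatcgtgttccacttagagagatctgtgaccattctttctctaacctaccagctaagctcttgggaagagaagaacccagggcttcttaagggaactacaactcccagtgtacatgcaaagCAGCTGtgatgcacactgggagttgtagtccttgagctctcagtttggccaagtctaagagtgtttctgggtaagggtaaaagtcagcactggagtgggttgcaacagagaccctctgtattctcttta
The capitals mark an E-box.

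Downstream of the proximal promoter, the 200 bp around the summit at −11.4 kb (chr3:89382193-89382392) come from a region called at DN and SP4 and not at DP or SP8. The 177 bp of the last coding exon (chr3:89379799-89379975) were covered by a peak at DN, DP and SP8 and not at SP4.
Intron at −11.4 kb: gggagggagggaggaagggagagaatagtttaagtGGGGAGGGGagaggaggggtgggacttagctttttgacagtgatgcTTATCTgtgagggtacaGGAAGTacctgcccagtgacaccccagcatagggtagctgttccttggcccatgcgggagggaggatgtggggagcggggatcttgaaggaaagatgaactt
Last coding exon: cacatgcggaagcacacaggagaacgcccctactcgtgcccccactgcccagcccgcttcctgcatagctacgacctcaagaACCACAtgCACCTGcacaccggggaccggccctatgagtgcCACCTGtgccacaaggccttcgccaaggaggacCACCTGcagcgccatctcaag
Capitals mark PATZ1, GATA and ETS matches in the intron, and a RUNX match (ACCACA on this strand) with 3 E-boxes in the exon.

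In the window DN had 19 peaks, DP 14, SP4 24 and SP8 13. Their lengths summed to 5619 bp for DN, 5363 for DP, 6937 for SP4 and 4880 for SP8. In the gene body alone there were 8, 6, 9 and 5 peaks in the same order. SP4 thus had the most peaks and the largest covered length of the 4 stages in the window, and SP8 the fewest and smallest. With 50 kb on either side DP and SP8 had 20 peaks each. The map of the peaks shows where they lay.

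**Figure D1:**
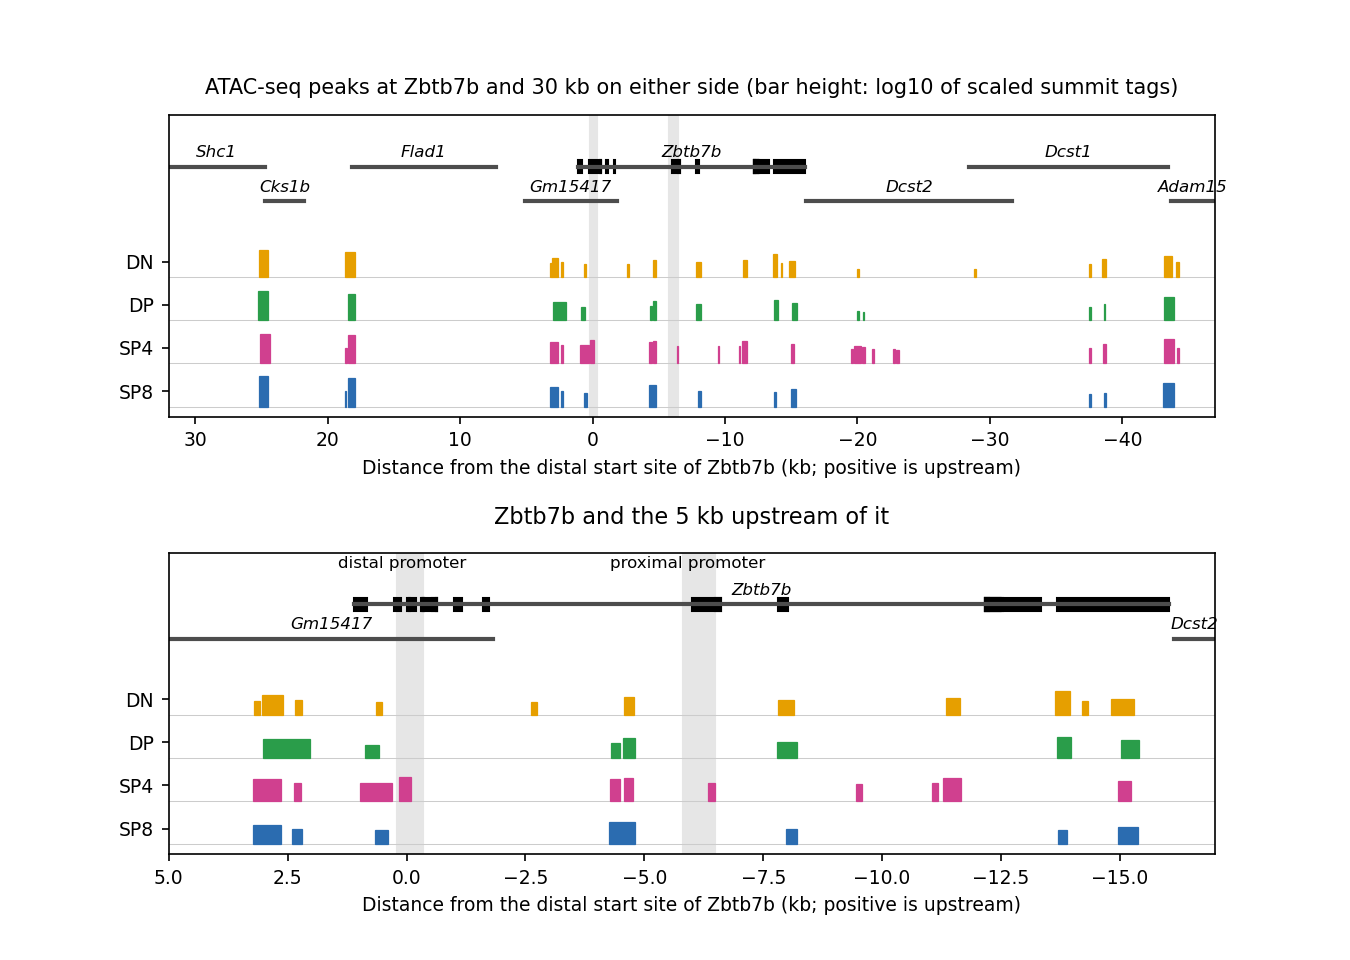
Peaks of each stage (DN orange, DP green, SP4 pink, SP8 blue) against the distance from the distal start site of *Zbtb7b* in kb, for the whole window (top) and for the gene with the 5 kb upstream of it (bottom). Bar height follows log10 of the scaled summit tags, black boxes are exons of *Zbtb7b*, lines are genes, and grey bands are the promoters (the start clusters of coding transcripts with the 200 bp upstream), where SP4 is the only stage with a peak.

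Of the 26 regions, 8 were called at SP4 only (30.8%), against 7.39% of all merged regions. These were the distal promoter, the proximal promoter, 2 regions inside the gene at −11.1 and −9.5 kb, and 4 in the neighbouring gene *Dcst2*. Apart from the distal promoter (6.77), their fold enrichments were low, at 2.37 to 3.02. No region of the window was called at DP only or at SP8 only, which held for 5.17% and 4.21% of all regions. Another 3 regions (11.5%) were called at DN only, against 21.7% of all regions. These 3, at −2.7, −14.2 and −28.9 kb, were lost when equal numbers of peaks were taken from each list, which left 0. Regions called at all 4 stages numbered 9 (34.6%, against 34.1%). The remaining sets were DN, DP and SP8 without SP4 with 2 regions (7.69%, against 2.24%), DN with SP4 with 2 (against 2.79%), DP with SP4 with 1 (against 1.24%) and DN, DP and SP4 with 1 (against 3.14%). In all, 12 of the 26 regions were called at SP4 and not at SP8, a class with 14.6% of all regions, and 2 at SP8 and not at SP4 (9.24% of all regions). At least 8 SP4-only regions in the gene and 30 kb on either side were found at 133 of 20807 protein-coding genes (0.639%), and the median gene had 0. Longer genes have wider windows, and this count was not adjusted for length.

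The distal promoter carried the tallest of the 8 SP4-only regions. Its SP4 peak (chr3:89393592-89393846, 255 bp) spanned the most upstream coding start and the sequence upstream of it shown above. It had 218 tags over the summit (95% Poisson interval 190 to 249), which is 67.7 times the genome background, a fold enrichment of 6.77 and a −log10 q-value of 102. No peak was called at the distal promoter at DN, DP or SP8. This holds for the 200 bp upstream of coding starts, since 1000 bp reach the region at +0.5 kb and give a peak at 4 stages, and the non-coding start at +1.1 kb has a peak at 0 stages. With the local background of the nearest peak of each list, 25 tags at DN, 28 at DP and 28 at SP8 would have been enough for a call. After scaling, the SP4 height was 9.51 times the level needed at DN, 7.92 times that at DP and 8.66 times that at SP8. These ratios also count the tags around the peak at SP4. There the 10 kb around the summit stood at 9.74 times the genome background, above the levels needed at DN (7.12), DP (8.55) and SP8 (7.82). By summit tags the SP4 peak was 2nd among the 13742 SP4-only regions of the genome. It was 14th by q-value and 1011th by fold enrichment, the measure that also counts the tags around the peak.

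A promoter called at SP4 only was rare. Among 14052 protein-coding genes with a promoter peak at any stage, 64 (0.455%) had one at SP4 only, whereas 84.0% had one at all 4 stages. With promoters of 1000 bp *Zbtb7b* would not be in the SP4-only class. *Zbtb7b* was 2nd of these 64 genes by summit tags, after *4930451I11Rik* (252 tags) and before *Gm9958* (190 tags). The antisense gene *Gm15417* (chr3:89391850-89398779, plus strand) overlaps the distal promoter and the upstream stretch. ATAC-seq carries no strand, so openness there cannot be assigned to either annotation. The regions at +0.5 and +2.9 kb, described below, each overlap the 200 bp upstream of an annotated start of *Gm15417*. A promoter here was the 200 bp upstream of any start site of the gene, so a gene with many annotated starts had more chances of a call.

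At +0.5 kb, just upstream of the distal promoter, a region (chr3:89393979-89394653) was called at all 4 stages. Over its summit DN had 35 tags, DP 34, SP4 85 and SP8 42. The SP4 summit stood above the other stages, which lay close together. The scaled ratio of SP4 to SP8 was 2.25 (1.54 to 3.34), to DP 2.54 (1.69 to 3.91) and to DN 2.65 (1.77 to 4.05). The SP4 peak was also the widest with 675 bp, against 110 bp at DN, 300 bp at DP and 260 bp at SP8. In fold enrichment the stages were much closer, at 2.59 (DN), 2.26 (DP), 2.93 (SP4) and 2.83 (SP8), at percentiles 2.68, 0.756, 5.22 and 5.08 of their lists.

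The upstream stretch at +2.9 kb (chr3:89395715-89396905), where the distal regulatory element with the silencer and thymic enhancer is known to lie, was open at all 4 stages. DN had 117 summit tags, DP 89, SP4 147 and SP8 110. The scaled SP4 to SP8 ratio was 1.49 (1.15 to 1.92), while fold enrichment had the opposite order, with 6.62 at SP4 and 9.30 at SP8. The lists differed in how the region was divided, with 3 peaks for DN, 1 for DP and 2 each for SP4 and SP8. The single DP peak was 978 bp long. It alone covered 187 bp in the middle of the region and 171 bp at the end nearer the gene. Those 187 bp, shown above, hold the region's RUNX match. RUNX letters occur in 35.4% of windows of about 300 bp around the summits of all merged regions. No summit lies in the 187 bp, so the tags there are not known at any stage. The exact ends of the silencer and the enhancer are in no file used here, so the peaks could not be assigned to either.

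Between the promoters, the region at −4.7 kb (chr3:89388882-89389411) was called at all 4 stages. Here DN had 82 summit tags, DP 108, SP4 190 and SP8 173. Both SP stages were above DP in scaled tags, SP4 by 1.79 times (1.41 to 2.29) and SP8 by 1.46 times (1.15 to 1.88). DP was above DN by 1.41 times (1.05 to 1.90). The interval of the SP4 to SP8 ratio, 1.22 (0.99 to 1.51), included 1. In fold enrichment SP4 was lowest, with 5.82 against 6.53 (DN), 7.06 (DP) and 11.1 (SP8). The SP8 to DP ratio of scaled tags was similar at the promoter of the neighbouring gene *Flad1*, at 1.42 (1.25 to 1.62). It was lower at the promoters of *Cks1b* and *Shc1* (1.18), *Adam15* (1.08) and *Dcst1* (0.67). The DP to DN ratio at these promoters was 1.22, 1.46, 1.35 and 0.69 in the same order. Another region between the promoters, at −2.7 kb, was called at DN only with 35 tags.

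At the proximal promoter, a 140-bp peak (chr3:89387194-89387333) was called at SP4 only. It began 5 bp upstream of one proximal start, and it lay inside the first exon of the other proximal transcript. With 75 summit tags (59.0 to 94.0), 23.3 times the genome background, it was lower than the distal promoter peak in the same list. Its fold enrichment of 2.37 was at percentile 0.937 of the SP4 list, because the surrounding 10 kb held 3111 tags. In scaled tags it was 3.27 times the level needed for a call at DN, 3.05 times that at DP and 3.21 times that at SP8. These ratios also count the surrounding SP4 tags, which stood at 9.66 times the genome background. That is above the levels needed at DN (7.12), DP (7.63) and SP8 (7.26). The upper proximal start, 89387671, is the one that RefSeq also lists, and no stage had a peak in the 200 bp upstream of it.

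Inside the gene, the intron before the first coding exon held a region at −11.4 kb (chr3:89382026-89382391) that was called at DN and SP4. DN had 72 tags over the summit and SP4 had 179, a scaled ratio of 2.71 (2.05 to 3.61). After the distal promoter and the region between the promoters, this was the tallest SP4 peak of the gene body in summit tags. SP4-only peaks at −11.1 kb (78 tags) and −9.5 kb (67 tags) lay beside it. By tags, 217 and 377 of the 13742 SP4-only regions were at or above these. By fold enrichment (3.02 and 2.38) they were at percentiles 6.17 and 0.992 of the SP4 list.

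A pair of exonic regions was called at DN, DP and SP8 and not at SP4. In the last coding exon (−13.8 kb, chr3:89379698-89380035), which codes for zinc fingers of ThPOK, the summit had 227 tags at DN, 126 at DP and 45 at SP8. DP was at 0.59 times DN (0.47 to 0.74) and SP8 at 0.33 times DP (0.23 to 0.46), so that height fell from DN to DP to SP8 in these pooled lists. The DN peak, with a fold enrichment of 14.3, was the tallest DN peak in the gene. At −8.0 kb (chr3:89385457-89385878), over a non-coding exon, DN had 52 tags, DP 56 and SP8 53. There the interval of SP8 over DP, 0.87 (0.58 to 1.28), and that of DP over DN, 1.15 (0.78 to 1.72), included 1. The SP4 tags in both regions are not known from the lists. With the local background of the nearest SP4 peak, a call at SP4 would have needed 38 tags in the coding exon and 46 at −8.0 kb. Scaled, the heights in the coding exon were 5.48 (DN), 3.26 (DP) and 1.06 (SP8) times that level. At −8.0 kb they were 1.04, 1.20 and 1.04 times that level, so an SP4 signal nearly as tall as at these stages could have gone uncalled there. In the coding exon an SP4 signal nearly as tall as at SP8 could also have gone uncalled.

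The non-coding part of the last exon (−15.1 kb, chr3:89378270-89378855) was called at every stage, and DN had 59 tags, DP 78, SP4 105 and SP8 78. The scaled SP4 to SP8 ratio was 1.5 (1.11 to 2.03) and the SP8 to DP ratio 0.91 (0.66 to 1.27). Nearby, at −14.2 kb, a DN-only peak had 42 tags.

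Downstream of *Zbtb7b*, the gene *Dcst2* held 6 regions between −23.1 and −19.6 kb, all called at SP4 and none at SP8. Of these, 4 were SP4-only, with 36 to 46 summit tags. Their fold enrichments were low, at 2.38 to 2.98, which are percentiles 0.985 to 5.80 of the SP4 list. Another was called at DP with 15 tags and SP4 with 62, a scaled ratio of 4.21 (2.36 to 7.96). The widest (−20.0 kb, chr3:89373422-89373907) had 16 tags at DN, 18 at DP and 75 at SP4. There SP4 was 5.11 times DN (2.95 to 9.40) and 4.24 times DP (2.51 to 7.54). *Dcst2* lies tail to tail with *Zbtb7b*, and peaks alone do not assign these regions to either gene.

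The ends of the window showed other patterns. The region at the promoter of *Flad1* (+18.3 kb), which codes for FAD synthase, had 331 tags (DN), 376 (DP), 501 (SP4) and 585 (SP8), with an SP4 to SP8 ratio of 0.95 (0.84 to 1.08). The region at the shared promoters of *Cks1b*, a regulator of cyclin-dependent kinases, and *Shc1*, a signalling adaptor (+24.8 kb), had 465, 634, 640 and 817 tags in the same order. Its SP4 to SP8 ratio was 0.87 (0.78 to 0.97). At the other end, the region over the promoter of *Adam15* and the end of *Dcst1* (−43.4 kb) had 159, 201, 247 and 238 tags, a ratio of 1.15 (0.96 to 1.39). Beyond it, at −44.2 kb in *Adam15*, a region was called at DN (53 tags) and SP4 (51 tags). Inside *Dcst1*, the region at −38.6 kb had 88, 57, 109 and 42 tags, with SP4 at 2.89 times SP8 (2.01 to 4.23). It overlapped the 200 bp upstream of an annotated start of *Dcst1*. A region at −37.5 kb had 36, 34, 49 and 31 tags (1.76 times, 1.1 to 2.85). A further region at −28.9 kb was called at DN only, with 15 tags.

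**Figure D2:**
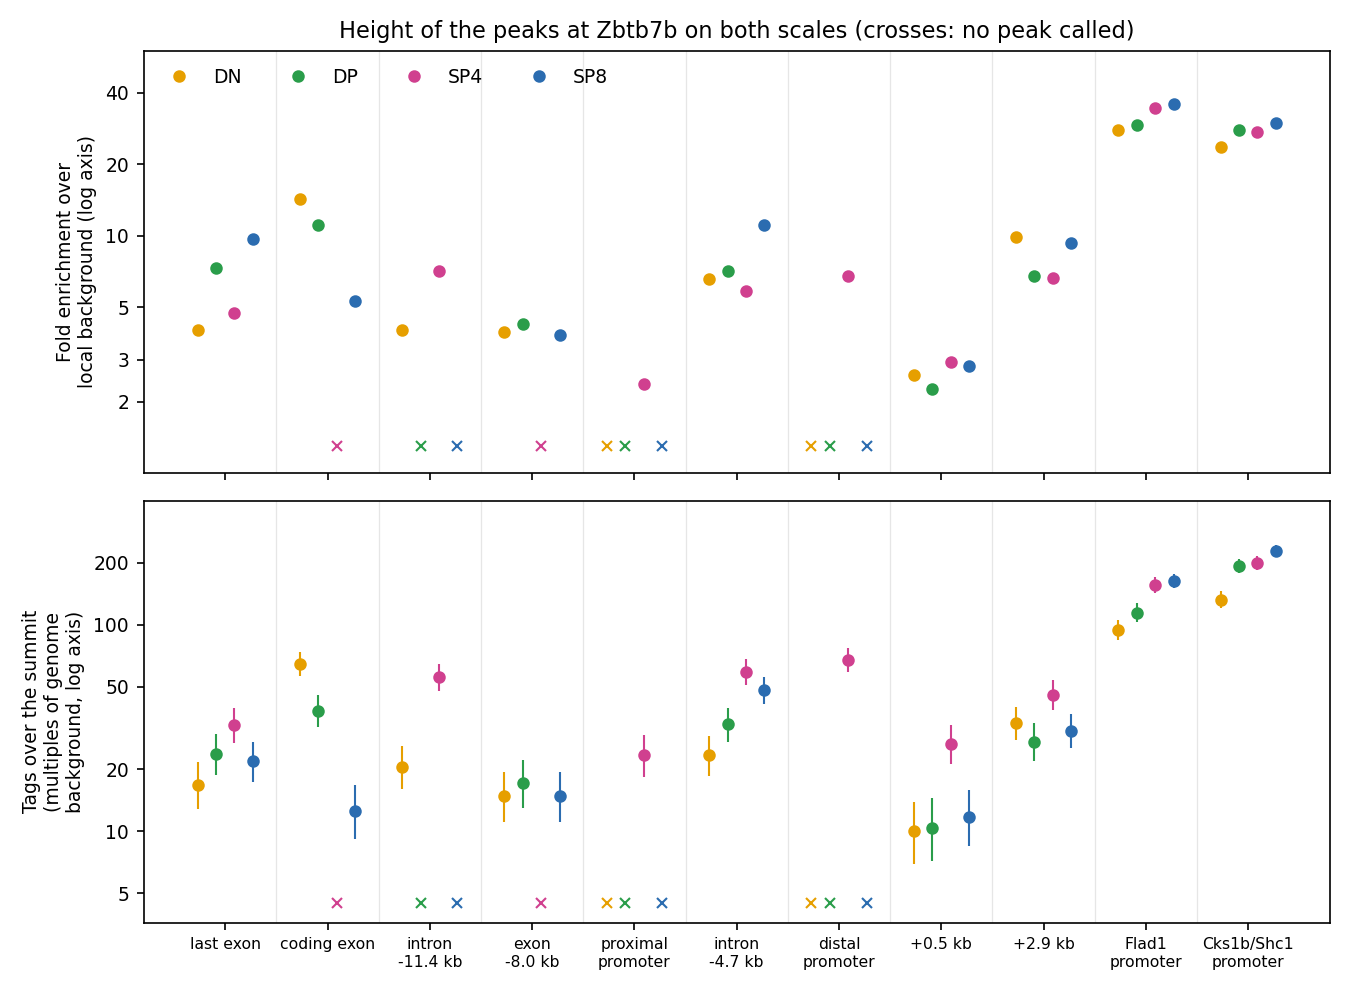
Fold enrichment over the local background (top) and scaled summit tags (bottom), both on log axes, of 11 regions at *Zbtb7b* and its neighbours in the 4 stages. Error bars are 95% Poisson intervals of the tags, crosses mark stages with no peak, and SP4 stands highest in summit tags at the last exon, at −4.7 kb, +0.5 kb and +2.9 kb, although at 3 of these 4 it is below SP8 in fold enrichment.

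The stretches around the peaks of the gene also held more tags at SP4. The lists give the tags in the 10 kb around each summit, background included. Over the peaks of the gene body DN had 1132 to 1717 such tags, DP 982 to 1458, SP4 2147 to 3240 and SP8 715 to 1462. In multiples of the genome background the ranges were 3.23 to 4.89 (DN), 3.0 to 4.45 (DP), 6.67 to 10.1 (SP4) and 2.0 to 4.08 (SP8). The peaks behind these ranges differ in number and place between the stages, and the ranges were not compared with those at other genes. The 10-kb stretches overlap each other and the peaks themselves, so these are not separate measurements.

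**Figure D3:**
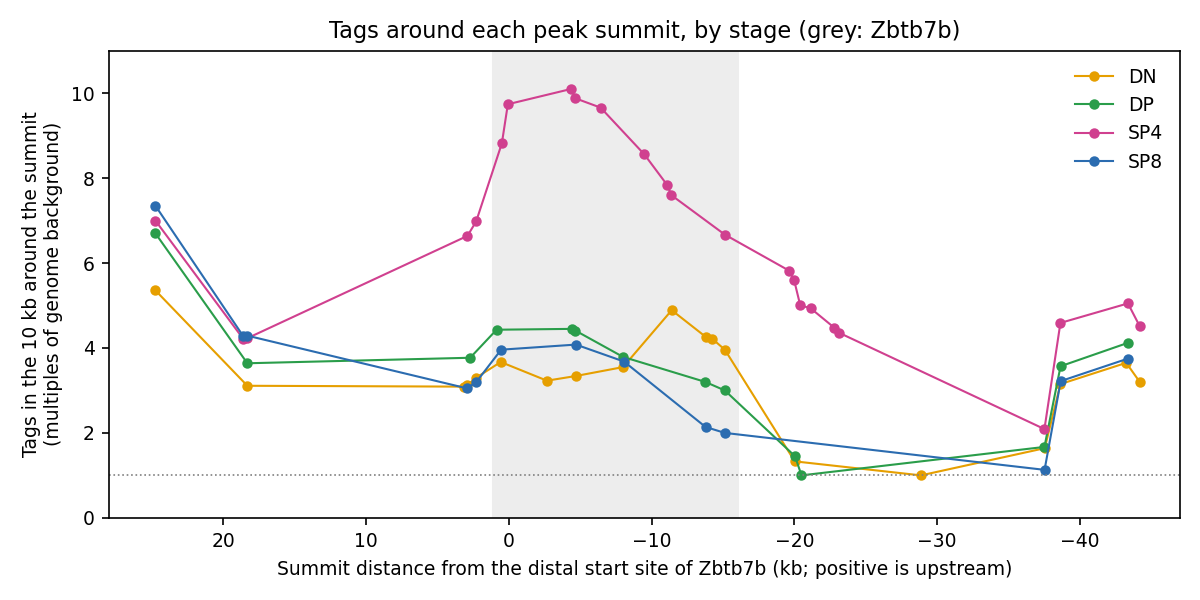
Tags in the 10 kb around each peak summit, in multiples of the genome background of the stage, against distance from the distal start site in kb. Each point is a peak, the grey band is *Zbtb7b* and the dotted line is the genome background. SP4 reaches 10.1 inside the gene, where DN, DP and SP8 stay at 4.89 or less, and SP4 and SP8 come together at the neighbouring promoters upstream.

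For regions called at SP4 and SP8 with both 10-kb values above the genome background, the median scaled ratio of SP4 to SP8 was 0.98 over 59314 regions, and 0.514% of them had a ratio of at least 2, while 0.651% had SP8 over SP4 of at least 2. Of the 9 regions of the window called at both stages, 4 had an SP4 to SP8 ratio of at least 2 and 0 the reverse. At *Zbtb7b* the ratio was 3.34 (3.07 to 3.64) at −15.1 kb, 2.42 (2.28 to 2.58) at −4.7 kb, 2.23 (2.09 to 2.38) at +0.5 kb and 2.17 (2.02 to 2.34) at +2.9 kb. Only 5 of the 59314 regions had a ratio as high as that at −15.1 kb or higher, itself included. At −4.7 kb the number was 64, at +0.5 kb 121 and at +2.9 kb 160. The ratio was 0.99 at the *Flad1* promoter and 0.95 at the *Cks1b* and *Shc1* promoters, both close to the median of all regions. On the other side of the gene it was 1.86 at −37.5 kb, 1.43 at −38.6 kb and 1.35 at −43.4 kb. Against DP the SP4 ratio was 2.22 at −15.1 kb, 2.24 at −4.7 kb, 1.99 at +0.5 kb and 1.76 at +2.9 kb, and 3.48% of 53255 regions reached 2. In *Dcst2* at −20.0 kb it was 3.85. Against DN it was 1.68 at −15.1 kb, 2.96 at −4.7 kb, 2.40 at +0.5 kb and 2.12 at +2.9 kb, and 2.83% of 57548 regions reached 2.

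**Figure D4:**
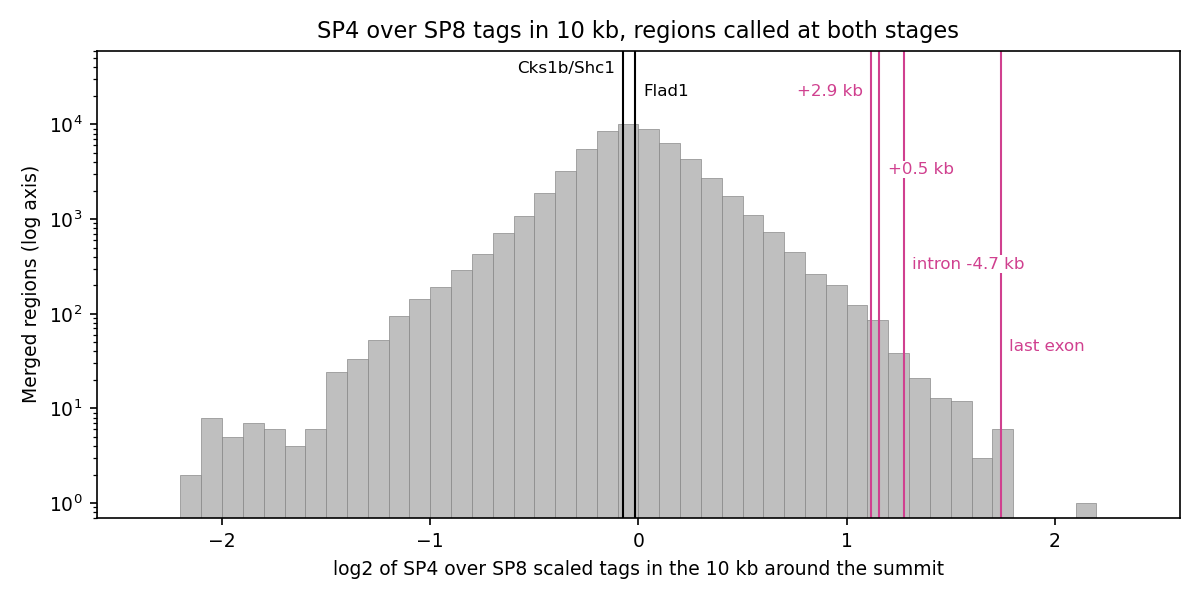
Number of merged regions (log axis) against log2 of the SP4 to SP8 ratio of scaled tags in the 10 kb around the summit, over 59314 regions called at both stages. The 4 regions in *Zbtb7b* or the upstream stretch called at both stages (pink lines, ratios of 2.17 to 3.34) lie in the upper tail. The *Flad1* and *Cks1b/Shc1* promoters (black lines, 0.99 and 0.95) lie at the centre.

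This raised local background bears on the fold enrichments in and just upstream of the gene, where the same number of summit tags gives a lower fold at SP4. At the *Flad1* promoter and the *Cks1b* and *Shc1* promoters it was not raised over SP8 (ratios of 0.99 and 0.95). As percentiles of fold enrichment within each list, the 9 regions called at all stages had medians of 63.7 (DN), 62.2 (DP), 55.2 (SP4) and 68.7 (SP8), and SP4 was lowest. As percentiles of summit tags, the medians were 76.1, 74.5, 85.7 and 74.8, and SP4 was highest. By fold enrichment, SP8 was higher by at least 20 percentile points in 2 of these 9 regions (8.15% of 81295 regions called at both stages), those at −15.1 and −4.7 kb. SP4 was higher in 1 (12.4%), in *Dcst1* at −38.6 kb. By q-value SP4 was higher in 2 (13.4%) and SP8 in 0 (7.55%). By summit tags SP4 was higher in 3 (12.1%), at −38.6, −37.5 and +0.5 kb, and SP8 in 0 (5.16%). Either scale describes these pooled lists only.

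Summed over the window, the open territory of *Zbtb7b* was compared with that of other genes by dividing the covered length at each stage by the median over 18468 autosomal protein-coding genes. The scaled values were 1.47 (DN), 1.76 (DP), 2.19 (SP4) and 1.59 (SP8). The order was therefore SP4, DP, SP8 and DN, and with no spread between mice it cannot be said which neighbours in this order differ. The SP4 to SP8 ratio was 1.38, and 1369 of 17637 genes (7.76%) had a ratio as high or higher. SP4 over DN was 1.49 (5.49% of genes as high or higher), SP4 over DP 1.24 (16.8%), DP over DN 1.20 (21%) and SP8 over DP 0.90 (70.2%).

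The genes with the most similar division of open territory among the stages, out of 10293 compared, were *Sumf1*, *Etnk1*, *Carnmt1*, *Stil* and *Ccnb2*. Likeness was the Euclidean distance between the shares of the 4 stages, and it ran from 0.007 for *Sumf1* to 0.017 for *Ccnb2*. The shares of *Zbtb7b* were 20.9% (DN), 25.1% (DP), 31.3% (SP4) and 22.7% (SP8). *Sumf1* had 21%, 25.6%, 30.8% and 22.7%. With 4 values per gene, many genes lie close together, and none of these 5 was among the nearest 5 when peaks were counted in place of bp.

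Among 24 other genes of the CD4 and CD8 lineage choice, 7 had more scaled territory at SP4 than at SP8 and 17 had less. The median ratio was 0.96, beside 0.98 over all genes. None of the 24 reached 1.25, which 11.8% of all genes did and *Zbtb7b* did with 1.38. The highest were *Tox* (1.13), *Myb* (1.11), and *Gata3* and *Runx1* (1.1 each). *Tox* codes for a nuclear factor needed for CD4 lineage development, and *Gata3* for a factor that acts upstream of ThPOK. The lowest were *Runx3* (0.70), *Cd8b1* (0.82) and *Socs1* (0.84). *Runx3*, which codes for the factor that opposes ThPOK in CD8 cells, was the only one at or below 0.8, as were 8.47% of all genes. *Cd4* had a ratio of 1.04 and *Cd8a* of 0.92. At *Runx3* the covered length was 8527 bp at SP4 and 11874 bp at SP8, in the opposite direction to *Zbtb7b* with 6937 and 4880 bp.

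**Figure D5:**
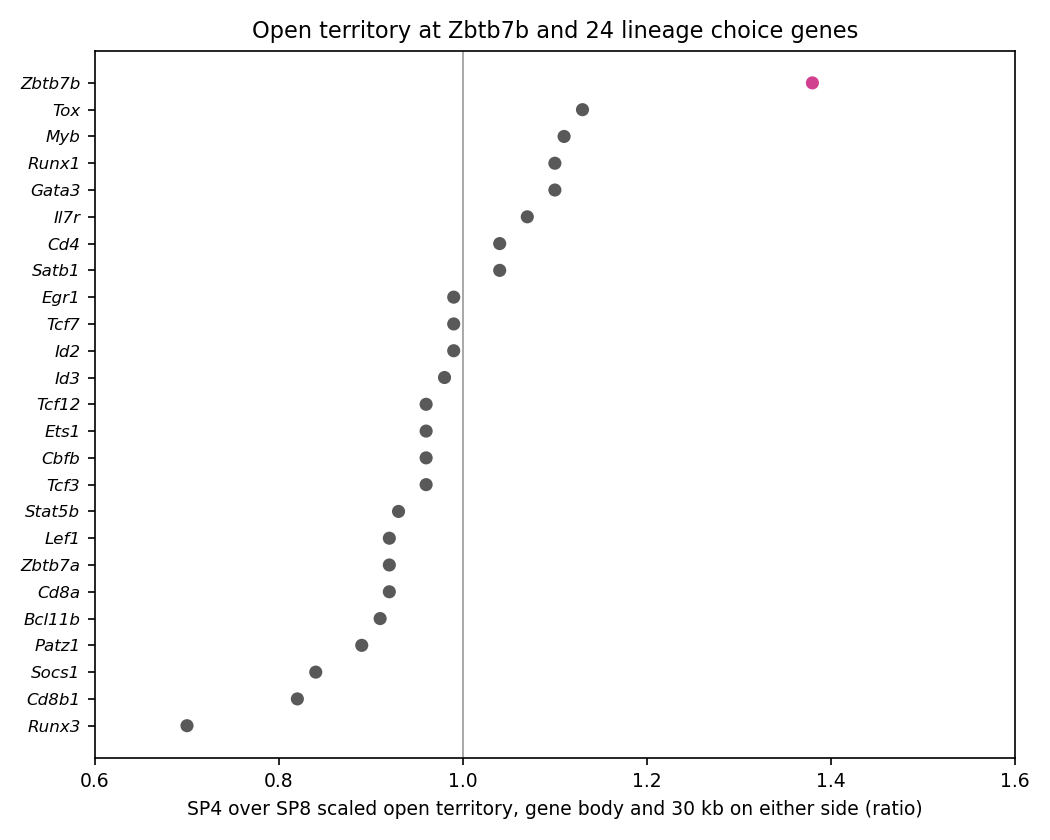
SP4 to SP8 ratio of scaled open territory, gene body and 30 kb on either side, for *Zbtb7b* (pink) and 24 genes of the CD4 and CD8 lineage choice (grey), ordered by the ratio. *Zbtb7b* stands highest at 1.38 and *Runx3* lowest at 0.70, with the others between 0.82 and 1.13. Each point is 1 ratio of pooled lists with no error.

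Plain-letter motifs of factors known in T cell development were searched on both strands in windows of about 300 bp around the highest summit of every merged region. RUNX (TGTGGT or TGCGGT) matched in 6 of the 26 windows at *Zbtb7b* and in 35.4% of all 185978 windows. The GATA motif, searched as AGATAA or TGATAA, matched in 2 (20.9% of all), those at +2.9 kb and −11.4 kb. The E-box (CAGCTG or CAGGTG) matched in 13 (45.2%), TCF/LEF (TCAAAG) in 5 (22.1%), MYB (CAACTG or CAACGG) in 5 (18.1%) and ETS (GGAAGT) in 6 (29.0%). PATZ1 (GGGGNGGGG) matched in 7 windows, against 11.8% of all, and KLF/SP (GGGCGG) in 8, against 13.3%. These are motifs of G and C that can overlap each other, and base composition was not adjusted for. CTCF, a long consensus with unspecified positions, matched in 4 (12.1%), NF-kB, of the same kind, in 3 (14.5%), STAT (TTCNNNGAA) in 2 (8.55%) and EGR (GCGTGGGCG) in 0 (0.192%). Within the SP4-only peak of the distal promoter the matches were an E-box and the KLF/SP box. The upstream stretch as a whole held matches for RUNX, GATA, E-box, ETS, PATZ1, KLF/SP, CTCF and NF-kB. A match describes letters in these windows and does not show that a factor was bound.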

How the data were processed

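ATAC-seq was done in sorted thymocytes (DN, DP, SP4 and SP8) from 4 mice. The authors mapped reads to mm10, removed duplicates, capped libraries at the median depth, pooled the mice of a stage and called narrow peaks with MACS2 at 5% FDR (version not given in the sources used here). Pooling hides the spread between mice, and the cap limits differences in depth. The authors deposited a score for every peak, which was not used. The fold enrichment, a ratio over the local background, and the −log10 p-value and −log10 q-value were deposited as MACS2 gave them.

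Summit tags and local background were solved for each peak from the fold enrichment and the Poisson p-value. Of all peaks, 99.997% or more of each list gave whole tags within 0.01. This step was chosen after seeing the data. All lists, motifs and members were chosen with earlier results of these data known. Named were all regions of the window, the 3 highest and 3 lowest lineage genes with *Gata3*, *Runx3*, *Cd4* and *Cd8a*, and the 5 nearest genes. The values of 1 marker gene are not reported here. *4930451I11Rik* and *Gm9958* were named after their values were seen. Starts within 500 bp formed a cluster and promoters were 200 bp. The distal promoter was the most upstream cluster with a coding transcript, because the outermost start, at +1.1 kb, belongs to a single non-coding transcript. With the rule as first written, which took that start, no peak lay at the distal promoter. Alternatives changed the q-value, list length, overlap, window, promoter and measure of height. Python 3.11.15, numpy 2.4.6, pandas 2.3.3 and scipy 1.17.1 were used, and the scripts were tested on simulated data.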

Additional observations from a re-analysis of the deposited data

How the results depend on the processing

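No paired analysis was possible because the authors pooled the mice of each stage, and for the same reason no mouse could be left out. The 8 SP4-only regions, and the 2 called at DN, DP and SP8 without SP4, kept their counts at a stricter q-value, at 50% overlap and with equal numbers of peaks per list, but with equal numbers 0 DN-only regions were left. The stricter q-value removed no peak of the window, so the counts could not change. An SP4-only region overlaps no peak of another list, so a stricter overlap could not remove one. In the gene body alone there were 8 (DN), 6 (DP), 9 (SP4) and 5 (SP8) peaks, and with 50 kb on either side 28, 20, 30 and 20. For regions called at all stages, the median percentile was 73.0 (DN), 71.1 (DP), 78.0 (SP4) and 73.7 (SP8) by q-value. Among peaks of such regions it was 43.3, 46.5, 37.3 and 55.8, and by tags 76.1, 74.5, 85.7 and 74.8. By q-value SP4 was higher than SP8 by 20 points in 2 regions and SP8 in 0, and by tags in 3 and 0. The gene's percentile of SP4 over SP8 territory, 92.2, became 93.4 with the number of peaks, 75.1 with summed fold enrichment, 87.2 in the gene body, 86.1 with 50 kb and 94.2 with equal lists. For SP4 over DP, 83.2 became 90.2, 72.2, 77.7, 75.1 and 85.4 in the same order, and for DP over DN, 79.0 became 50.3, 72.9, 59.3, 81.1 and 75.8. Of the 5 nearest genes 0 remained with the number of peaks. A promoter of 1000 bp gave the distal promoter a peak at 4 stages, because it then reaches the region at +0.5 kb. The outermost start gave it 0 stages and the upstream stretch 1 region, and RefSeq starts gave the proximal promoter 0 stages. A region without a peak may hold tags below the threshold.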
